A study of Mus musculus with 18 samples.

Results

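Oxidative phosphorylation is the process by which the inner mitochondrial membrane turns the electrons of NADH and succinate into ATP. Complexes I (NADH dehydrogenase), III (cytochrome bc1) and IV (cytochrome c oxidase) pump protons, complex II (succinate dehydrogenase) feeds in electrons from the citric acid cycle without pumping, and complex V (ATP synthase) uses the returning protons to make ATP. Most subunits are encoded in the nucleus and a few in mitochondrial DNA, and T cells are known to change their reliance on this pathway between quiescence, activation and memory.

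The nuclear transcripts of these complexes were taken by symbol from the count table of thymic invariant NKT (iNKT) cells, T cells with a semi-invariant receptor for lipids presented by CD1d. Rows whose symbol begins with Ndufa, Ndufb, Ndufc, Ndufs, Ndufv, Sdh, Uqcr, Cox4, Cox5, Cox6, Cox7, Cox8 or Atp5 gave 92 genes. Of these, 6 assembly factors were left out by symbol, and 8 had fewer than 10 counts over the 18 libraries. The remaining 78 members were 78 of 23337 genes in the table, 15582 of which had a count. They held 35 genes of complex I, 4 of complex II, 8 of complex III, 13 of complex IV and 15 of complex V. The last 3 members, Atp5s, Atp5sl and Cox4nb, fall under the prefixes without being subunits, and Ndufa4 was placed in complex IV. All 78 passed the filter on low counts.

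RNA was sequenced from thymic cells of WT mice and of SKG mice, both on a BALB/c background, with 3 libraries for each of NKT1, NKT2 and NKT17 cells in each genotype. In SKG the kinase ZAP70, which docks on the activated T cell receptor, bears a single amino acid change that weakens signalling in every cell that uses it. Both genotypes were F3 mice from lines bred apart after a cross of SKG to BALB/cJ, so the lines may differ at other loci. All cells bound the CD1d tetramer. NKT1 cells were sorted as CD49a+ with low ICOS, NKT2 cells as CD49a- Sdc-1- with high ICOS, CD4 and TCR beta, and NKT17 cells as CD49a- Sdc-1+ with high ICOS. Age, and whether animals were pooled, were not given in the sources used here, so p-values measure the spread between these libraries.

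Depth was 4391029 to 8895917 counts per library. The NKT1 marker list summed to 3970 to 5292 CPM (each library's counts scaled to the same fixed total, with TMM factors) in NKT1 libraries and at most 422 elsewhere, and the NKT17 list to 2161 to 2316 CPM in NKT17 libraries and at most 13.9 elsewhere. The NKT2 list set NKT2 (1545 to 2599 CPM) apart from NKT1 (558 to 784 CPM) but not from NKT17 (1448 to 2538 CPM). Among markers of other cells, the red cell list reached at most 1.44 CPM. The summed B cell list lay at 7.81 to 40.7 CPM in NKT17 libraries and at most 5.94 CPM elsewhere, and Cd79b was its only tested gene. The myeloid list summed to 149 to 318 CPM, almost all of it Cst3, which many cells express. In WT NKT17 against WT NKT2, Cst3 was called higher (log2 fold change 0.63), Fcgr3 was called lower (-2.59) and Lyz2 did not pass the test. Of the markers of double-positive thymocytes, Cd8b1 was at 1.76, 11.8 and 6.04 CPM in WT NKT17, 36.8, 12.4 and 18.4 CPM in SKG NKT17 and at most 4.2 CPM in the other groups. Cd1d1 of the same list went the other way, with its highest means in NKT2. It averaged 36.8 CPM in WT NKT2 and 23.2 CPM in WT NKT17, and 60.9 CPM in SKG NKT2 and 36.2 CPM in SKG NKT17. Their part in the results below was not tested.

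The promoters of the members are shown first because motifs of NRF1, YY1 and ETS factors such as GABPA are known from genes of this pathway. A RefSeq promoter (build GRCm38.p6, 250 bases before to 50 after the start of transcription) was matched by symbol for 63 of the 78 members. Both strands were searched for the NRF1 motif, spelled GCGCATGCG. The YY1 motif was searched as AAGATGG on both strands. For ETS factors the letters were CCGGAAG. The fourth motif was the TATA box, TATAAA. NRF1 letters stood in 8 members (12.7%, against 1.95% of all 27025 genes with a promoter), YY1 letters in 10 (15.9% against 7.28%) and ETS letters in 16 (25.4% against 9.93%). The TATA box stood in 5 members (7.94% against 15.7%). At least 1 of the first 3 motifs stood in 29 members, 46.0% against 17.8% of all genes. The genes with a promoter were not restricted to those expressed in these cells, whereas all members were expressed.

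The stretches below show 4 members in which NRF1 letters stand wholly before the start of transcription with 16 bases on each side (capitals). In each, the match overlaps its own reverse complement, so that 10 letters are capitals and both strands match.
Atp5g2, complex V, chr15:102671064-102671105, minus strand: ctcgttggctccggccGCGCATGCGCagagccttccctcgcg
Atp5k, complex V, chr5:108434424-108434465, minus strand: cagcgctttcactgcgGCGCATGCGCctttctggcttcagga
Cox6a1, complex IV, chr5:115349095-115349136, minus strand: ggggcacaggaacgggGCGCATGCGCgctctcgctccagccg
Ndufa11, complex I, chr17:56717686-56717727, plus strand: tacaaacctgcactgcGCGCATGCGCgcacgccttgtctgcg

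Of the 8 members that later passed both thresholds in some comparison, 7 had a promoter in the table, and 2 of these held any of the 4 motifs. These are shown because Sdhb and Ndufa3 carry main results below, with 10 bases on each side of the match (capitals). The letters in Sdhb begin at base 7 after the start of transcription, and the YY1 letters in Ndufa3 at base 23 after it. The TATA letters in Ndufa3 begin 166 bases before the start. Only letters were matched, and whether any of these sites is used was not tested.
Sdhb, ETS letters, chr4:140961267-140961293, plus strand: ctcggagaaaCCGGAAGcggccttcca
Ndufa3, YY1 letters, chr7:3617385-3617411, plus strand: cgccaagaacAAGATGGccgggagtaa
Ndufa3, TATA box, chr7:3617197-3617222, plus strand: tttgctgagtTATAAActataagaaa
No match in the other 5 says only that these letters are not in this window.

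Compared per kilobase of transcript, the medians of complexes IV, V and III stood above those of complexes I and II. The ranges overlapped, from 26.5 to 572 CPM per kb in complex I and 4.43 to 1418 in complex IV. Lengths were medians of annotated coding transcripts (GENCODE M1) and were not measured in these cells. The median over all libraries was 386 CPM per kb for complex IV, 364 for complex V, 334 for complex III, 179 for complex II and 171 for complex I. The highest were Cox4i1, the ubiquitous isoform of subunit 4 (1418 CPM per kb), Ndufa4 (1082 CPM per kb) and Atp5b, the catalytic beta subunit of ATP synthase (743 CPM per kb). The lowest subunit was Cox7a1, the heart and muscle isoform of subunit 7a, at 4.43 CPM per kb. Other tissue-restricted isoforms (Cox4i2, Cox6a2, Cox7b2, Cox8b, Cox8c and Ndufa4l2) had 0 counts in all 18 libraries, and Cox6b2, the testis isoform of subunit 6b, had 7. Ndufs5 had 1 count, and 42.2% of the 50-base windows of its transcripts occur elsewhere in the genome, so that its level is not known from these counts. The median biological coefficient of variation was 13.1% for the members and 13.4% for tested genes with a mean of at least 50 CPM.

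Together the members made up 2.05 to 2.27% of the counts of WT NKT2 libraries, 1.6 to 1.79% in WT NKT1 and 1.61 to 1.96% in WT NKT17. After TMM scaling their sum was 20052, 22602 and 21682 CPM in WT NKT2 replicates 1, 2 and 3, above 18739, 16775 and 19327 CPM in WT NKT1 and 17511, 19896 and 15009 CPM in WT NKT17. No WT NKT1 or WT NKT17 library reached the lowest WT NKT2 library. In SKG the sums were 19275, 18174 and 19904 CPM in NKT2, 17062, 16634 and 18922 CPM in NKT1 and 20478, 16794 and 19156 CPM in NKT17, and the groups overlapped. In WT, 61 of the 78 members had their highest mean in NKT2, 12 in NKT1 and 5 in NKT17, whereas 33.2% of all tested genes were highest in NKT2. In SKG, 43 members were highest in NKT17 (55.1%, against 35.4% of all tested genes), 30 in NKT2 (38.5% against 31.8%) and 5 in NKT1 (6.41% against 32.8%). In bulk samples, fewer cells of a type and less RNA per cell cannot be told apart.

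**Figure D1:**
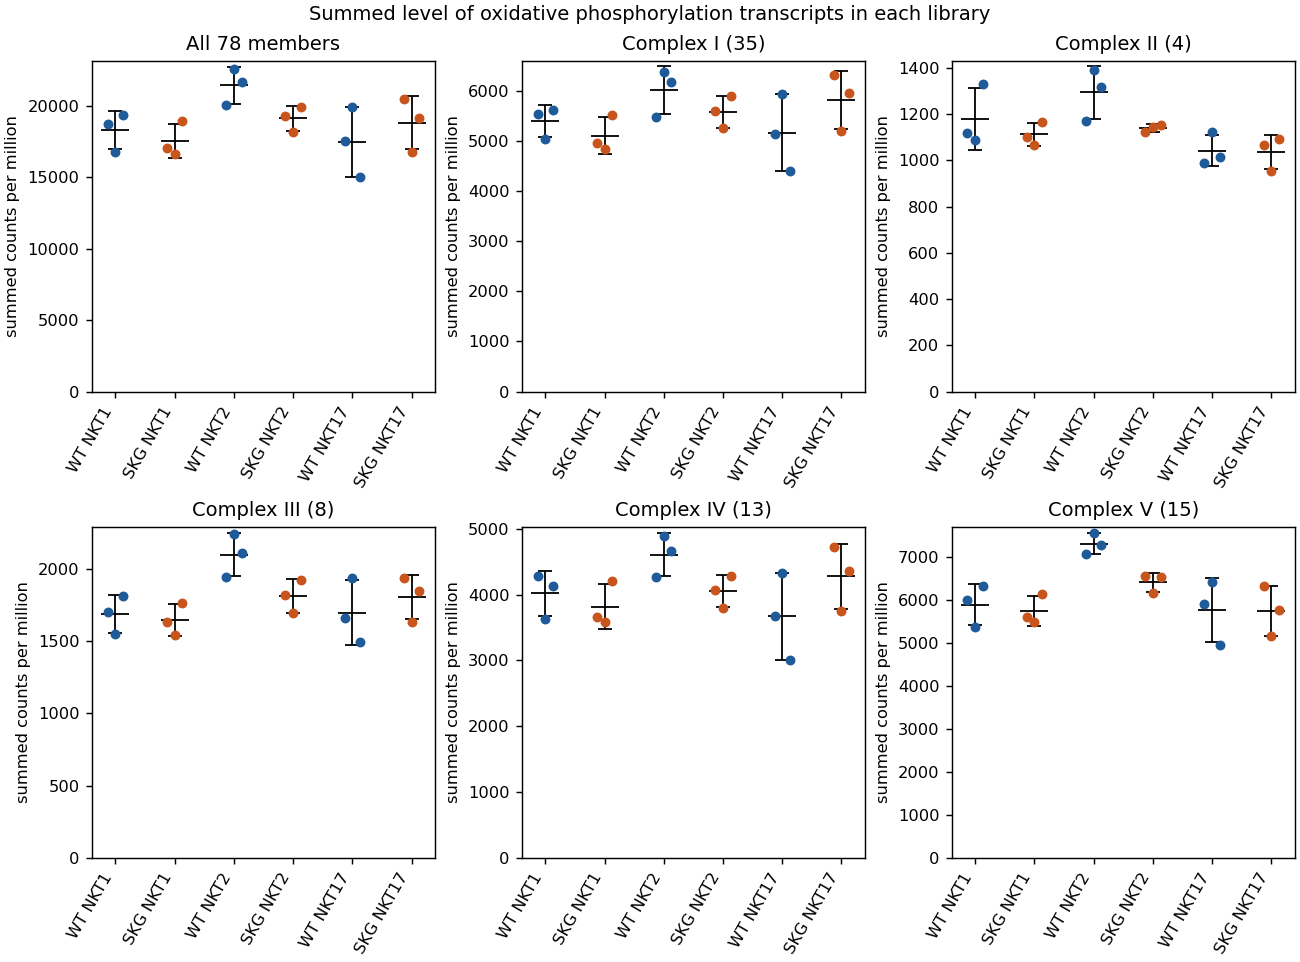
Summed CPM (y axis, from 0) of all 78 members and of the members of each complex, for the 6 groups on the x axis; points are libraries (blue WT, orange SKG) and black bars the mean with its SD (n = 3). In WT the 3 NKT2 libraries (20052 to 22602 CPM for all members) lie above every NKT1 and NKT17 library for all members and for complexes III and V. For complexes I, II and IV the lowest WT NKT2 library lies under a WT NKT1 library. For all members the SKG groups overlap.

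The comparison of NKT1 with NKT2 cells asks how the interferon-gamma-producing and the IL-4-producing subset differ. In WT, transcripts of all 5 complexes were mostly lower in NKT1, by small amounts. The median log2 fold change of the members was -0.23 (0.00 over all 11118 tested genes), and 66 of 78 estimates were negative. With the thresholds of the study (adjusted p under 0.1 and at least 1.5-fold; edgeR's quasi-likelihood test), 2 members were called, both lower in NKT1, against 27.5% of all tested genes. By adjusted p alone 26 members were lower in NKT1 (19.5% of all genes) and 2 were higher (19.3%). The libraries of 31 members did not overlap with NKT1 lower, which 21.7% of all genes also showed. The 95% interval of 53 members lay within 1.5-fold in either direction, as did that of 24.4% of all genes.

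The 2 called members were a subunit of complex I and a subunit of complex III. Ndufc2, a membrane-arm subunit of complex I (chr7:104548513-104556312 in NCBIM37), was at 102, 105 and 103 CPM in WT NKT2 and at 56.7, 56.5 and 63.9 CPM in WT NKT1. The groups did not overlap, and the log2 fold change was -0.81 ± 0.15 (SE; adjusted p = 0.00022, edgeR). Uqcrq, a small subunit of complex III (chr11:53241424-53244333 in NCBIM37), was at 197, 222 and 221 CPM in WT NKT2 and at 139, 106 and 144 CPM in WT NKT1. Its log2 fold change was -0.72 ± 0.14 (SE; adjusted p = 0.000335, edgeR), again without overlap. Both calls held in all 16 alternatives tried.

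By complex, members lower in WT NKT1 by adjusted p alone were 7 of 35 in complex I and 1 of 4 in complex II. They were 4 of 8 in complex III, 6 of 13 in complex IV and 8 of 15 in complex V. Over all genes the share was 19.5%, and complex I was near it. The median log2 fold changes of the complexes ran from -0.17 in complex I to -0.31 in complex V. In ATP synthase, the catalytic subunit Atp5b was at 1797, 1749 and 1734 CPM in WT NKT2 and at 1302, 1126 and 1373 CPM in WT NKT1. Its log2 fold change was -0.47 ± 0.11 (SE; adjusted p = 0.00159, edgeR), and the groups did not overlap. Atp5a1, the alpha subunit of the same catalytic head, had a log2 fold change of -0.31 (adjusted p = 0.016). The ring subunit gene Atp5g3 had a log2 fold change of -0.50 (adjusted p = 0.00228), and Atp5j, a coupling factor of the peripheral stalk, one of -0.54 (adjusted p = 0.00183). Of the core list of 21 subunits that carry catalysis or electron transfer or anchor assembly, 10 were lower by adjusted p alone and 1 was higher. Over all genes 19.5% were lower and 19.3% higher.

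The 2 members that went the other way were both in complex I. Ndufs7, which holds an iron-sulfur cluster near the ubiquinone site, was at 164, 150 and 178 CPM in WT NKT1 and 124, 134 and 147 CPM in WT NKT2 (log2 fold change 0.28, adjusted p = 0.0913). Ndufb7, a small subunit of the membrane arm, was at 183, 164 and 175 CPM in WT NKT1 and 141, 152 and 139 CPM in WT NKT2 (log2 fold change 0.27, adjusted p = 0.0842). In neither gene did the groups overlap, and neither reached 1.5-fold.

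Genes of cell division moved in the same comparison. Of 18 proliferation genes, 14 were called lower in WT NKT1 than in WT NKT2, with Tyms at a log2 fold change of -2.18 and Top2a at -2.09. Their part in the shift of the members was not tested. The size of the shift depended on the scaling: with library totals or upper-quartile factors the median of all genes moved to -0.12 and -0.10, and 9 and 7 members were called. Without WT NKT1 replicate 1, WT NKT2 replicate 1 or WT NKT1 replicate 3 the count was 4, 5 and 4. The shares of all genes called in these fits are not given here.

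NKT17 cells, which make IL-17, were compared with the same WT NKT2 libraries and showed a similar picture, so that the WT NKT2 group is shared by the comparison above. The median log2 fold change was -0.29 (0.01 over all genes), and 72 of 78 estimates were negative. Both thresholds were passed by 2 members, lower in NKT17, against 20% of all genes. By adjusted p alone 30 members were lower (13.6% of all genes) and none was higher. The libraries of 31 members did not overlap with NKT17 lower, against 18.8% of all genes.

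Sdhb, the iron-sulfur subunit of succinate dehydrogenase (chr4:140517118-140535108 in NCBIM37), was at 237, 277 and 234 CPM in WT NKT17 and 388, 421 and 415 CPM in WT NKT2. The log2 fold change was -0.71 ± 0.10 (SE; adjusted p = 1.24e-05, edgeR), the groups did not overlap, and the call held in all 16 alternatives. Of the other complex II genes, Sdha, Sdhc and Sdhd did not pass the adjusted p. Sdhb was also lower in WT NKT17 than in WT NKT1 (317, 300.4 and 368 CPM), with a log2 fold change of 0.40 for NKT1 over NKT17 (adjusted p = 0.00444), short of 1.5-fold.

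Cox7a2, the ubiquitous isoform of subunit 7a (chr9:79603048-79607660 in NCBIM37), was at 232, 272 and 170 CPM in WT NKT17 and 334, 355 and 364 CPM in WT NKT2. Its log2 fold change was -0.65 ± 0.14 (SE; adjusted p = 0.00176, edgeR), without overlap, and the call was lost when WT NKT17 replicate 3, its lowest library, was left out. Between WT NKT1 and WT NKT2 the same gene had a log2 fold change of -0.53 (adjusted p = 0.00617), under 1.5-fold.

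All 15 members of complex V had negative estimates in NKT17, and 11 of them passed the adjusted p alone. The counts were 8 of 35 in complex I, 1 of 4 in complex II, 3 of 8 in complex III and 7 of 13 in complex IV. Over all genes 13.6% were lower by adjusted p alone. Examples with no overlap were Ndufa9, an accessory subunit of complex I (log2 fold change -0.52, adjusted p = 0.000847), Uqcrc2, a core protein of complex III (-0.47, adjusted p = 0.000749), and Atp5f1, the b subunit of the stator stalk (-0.49, adjusted p = 0.000551). Cox4i1 was at 839, 1038 and 716 CPM in WT NKT17 and 980, 1164 and 1084 CPM in WT NKT2 (log2 fold change -0.32, adjusted p = 0.0456), and these groups overlapped.

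In the sums of complexes I, III, IV and V, WT NKT17 replicate 2 was the highest of its group and replicate 3 the lowest. Without replicate 2, the highest, 9 members were called and 43 passed the adjusted p alone. Without replicate 3, the lowest, 1 was called and 15 passed. The sample titles carry a token shared across subsets, and in this comparison same-token libraries deviated together. With the token as a block (the paired fit), 4 members were called and 36 passed the adjusted p alone. The shares of all genes in these fits are not given here, so the changes may not be particular to the members. Of the 18 proliferation genes, 15 were called lower in WT NKT17 than in WT NKT2, and their part was not tested.

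NKT1 and NKT17 cells of WT mice, set against each other, differed little in these genes. The median log2 fold change for NKT1 over NKT17 was 0.07 (-0.01 over all genes), and it changed sign to -0.05 with library totals and to -0.06 without WT NKT17 replicate 3. No member passed both thresholds in edgeR or DESeq2, against 24.7% of all genes in edgeR, and 16 members had an unadjusted p under 0.05. For this and later counts at unadjusted p, the share of all genes is not given here. Without any 1 of the WT NKT1 libraries, WT NKT17 replicate 2 or WT NKT17 replicate 3, 1 was called. By adjusted p alone 8 were higher in NKT1 (16.2% of all genes) and 3 lower (17.1%). The largest rise was that of Cox8a, the ubiquitous isoform of subunit 8 (510.9, 359 and 431 CPM in WT NKT1; 297, 359 and 248 CPM in WT NKT17), with a log2 fold change of 0.52 (adjusted p = 0.00382) and overlapping groups. Ndufc2 was lower in NKT1 than in NKT17, where it was at 84.9, 105 and 65.5 CPM (log2 fold change -0.53, adjusted p = 0.0109), without overlap.

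**Figure D2:**
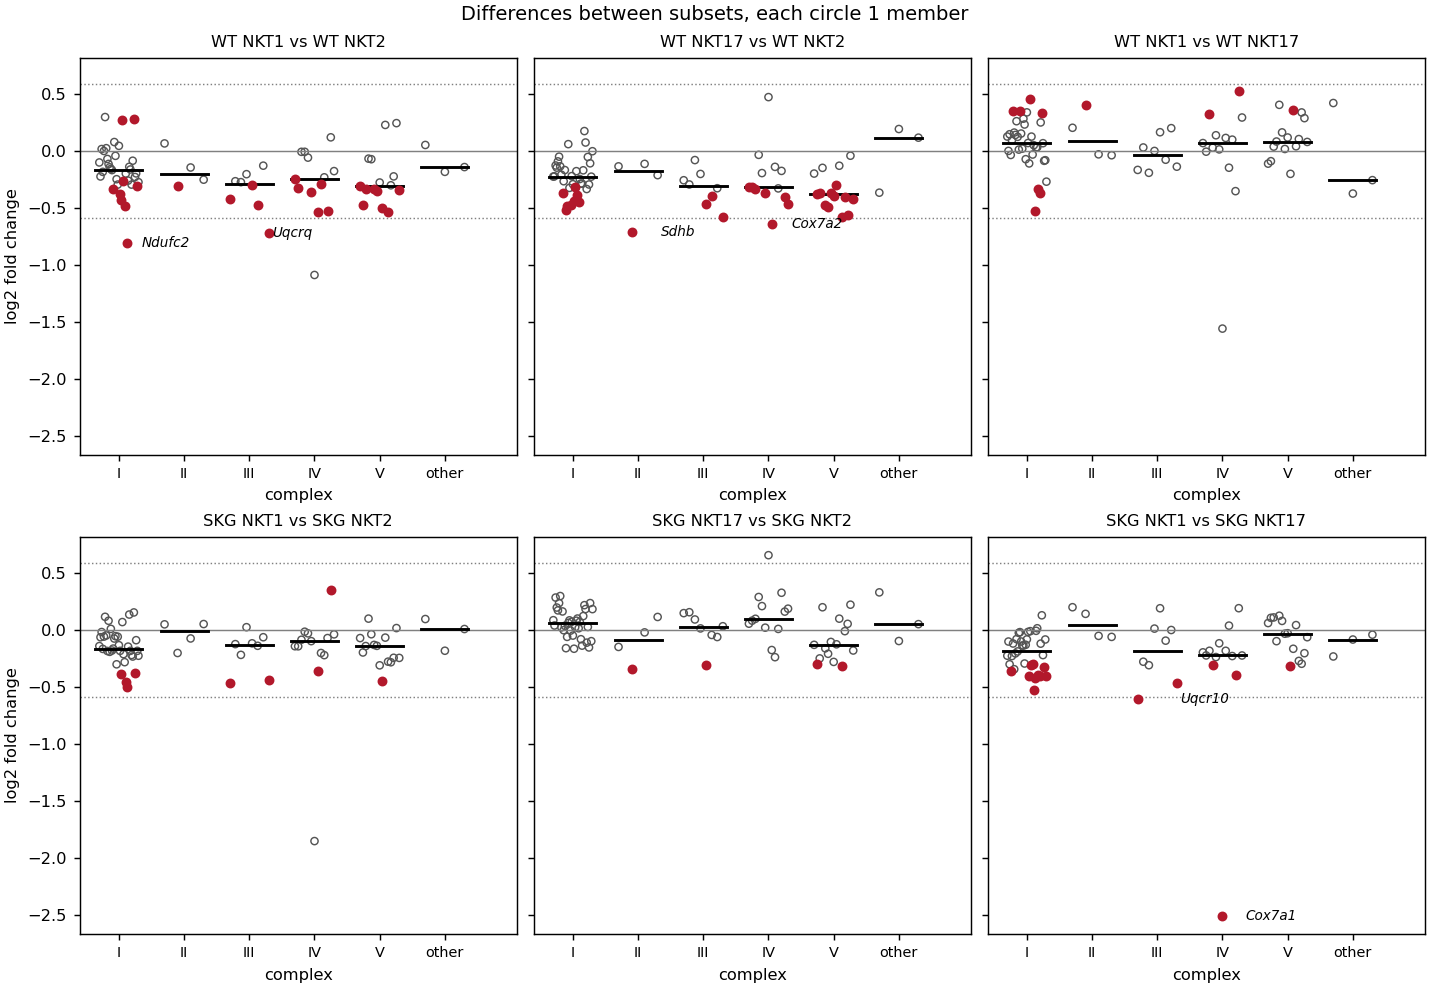
Log2 fold change (y axis) of each member for the 6 comparisons between subsets, grouped by complex on the x axis (other, the 3 members that are not subunits); red points passed the adjusted p, open circles did not, black bars are medians and dotted lines mark 1.5-fold. Most red points lie between 0 and the lower dotted line, and the named genes are those past both thresholds.

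The same subsets were compared among SKG libraries, where libraries of the same title token also deviated together but were not paired in the main tests. NKT1 against NKT2 again gave mostly negative estimates (64 of 78), with a median log2 fold change of -0.14 (-0.02 over all genes). No member passed both thresholds in edgeR or DESeq2, against 18.7% of all genes in edgeR, and 13 had an unadjusted p under 0.05. By adjusted p alone 8 were lower (11.7% of all genes) and 1 was higher (14.1%). Not overlapping and lower in NKT1 were 19 members, against 19.1% of all genes. Ndufc2 was at 59.1, 53.7 and 59.4 CPM in SKG NKT1 and 90.3, 75.6 and 78.4 CPM in SKG NKT2 (log2 fold change -0.50, adjusted p = 0.0203). Uqcrq was at 127, 117 and 135 CPM against 177, 159 and 177 CPM (log2 fold change -0.44, adjusted p = 0.0284). Neither gene's groups overlapped, and neither reached 1.5-fold. The member that was higher was Cox8a, at 383, 369 and 404 CPM in SKG NKT1 and 298, 278 and 332 CPM in SKG NKT2 (log2 fold change 0.35, adjusted p = 0.0651). Library totals raised the number past the adjusted p alone and lower to 34, while moving the median of all genes to -0.13. Of the 18 proliferation genes, 7 were called lower in SKG NKT1, and their part was not tested.

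SKG NKT17 and SKG NKT2 libraries were close. The median log2 fold change was 0.03 (0.01 over all genes), 47 estimates were positive and 31 negative, and no member was called in edgeR or DESeq2 (8 with an unadjusted p under 0.05), against 18.8% of all genes in edgeR. By adjusted p alone 4 members were lower in NKT17 (12.7% of all genes): Sdhb, Atp5j, Uqcrc2 and Atp5b. Sdhb was at 294, 246 and 286 CPM in SKG NKT17 and 349, 337 and 362 CPM in SKG NKT2 (log2 fold change -0.34, adjusted p = 0.0169), without overlap. The 95% interval of 72 members lay within 1.5-fold, as did that of 28.9% of all genes. In the same comparison 13 of the 18 proliferation genes were called lower in NKT17, with a median log2 fold change of -1.82. Their part was not tested.

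Against SKG NKT17, SKG NKT1 libraries had lower estimates for 64 members, with a median log2 fold change of -0.14 (-0.01 over all genes). Both thresholds were passed by 2 members, lower in NKT1, against 22.8% of all genes, and 16 passed the adjusted p alone (16.4% of all genes), all lower. Of these, 10 belonged to complex I. Of the 18 proliferation genes, 8 were called higher in SKG NKT1, with a median log2 fold change of 0.76, and their part was not tested. Not overlapping and lower in NKT1 were 15 members, against 21.9% of all genes. Uqcr10, a small subunit of complex III (chr11:4601976-4604345 in NCBIM37), was at 118, 104 and 138 CPM in SKG NKT1 and 211, 159 and 180 CPM in SKG NKT17. Its log2 fold change was -0.61 ± 0.18 (SE; adjusted p = 0.014, edgeR), and the call was lost without SKG NKT1 replicate 1, SKG NKT1 replicate 2 or SKG NKT17 replicate 1.

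Cox7a1 (chr7:30969190-30971047 in NCBIM37) was the other, and it rested on few reads: 6, 0 and 3 counts in SKG NKT1 and 28, 19 and 13 counts in SKG NKT17. The groups did not overlap, and the fitted log2 fold change was -2.50 ± 0.79 (SE; adjusted p = 0.0214, edgeR). In WT the counts were 6, 5 and 1 in NKT1 and 6, 16 and 12 in NKT17, with an adjusted p of 0.156.

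SKG was then compared with WT within each subset, which asks what weakened receptor signalling goes with. In NKT1 cells no member was called in edgeR or DESeq2, against 3.27% of all genes in edgeR, none passed the adjusted p alone and 4 had an unadjusted p under 0.05. The median log2 fold change was -0.06 (-0.01 over all genes). The 95% interval of 74 of 78 members lay within 1.5-fold, as did that of 39.3% of all genes. The widest departures, at log2 fold changes of -0.39 and 0.22, were both short of the adjusted p.

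In NKT2 cells the members were lower in SKG by a median log2 fold change of -0.15 (0.00 over all genes), with 62 negative estimates. None passed both thresholds in edgeR or DESeq2, against 7.95% of all genes in edgeR, and 20 had an unadjusted p under 0.05. By adjusted p alone 7 were lower (6.07% of all genes), among them Cox7c, Ndufa4 and Cox8a of complex IV and Atp5j, Atp5g3 and Atp5f1 of complex V. This number was 0 without any of WT NKT2 replicate 2, WT NKT2 replicate 3 or SKG NKT2 replicate 2, and 1 and 4 without SKG NKT2 replicates 1 and 3. Not overlapping and lower in SKG were 30 members, against 16.2% of all genes. Cox8a was at 373, 416 and 410 CPM in WT NKT2 and 298, 278 and 332 CPM in SKG NKT2 (log2 fold change -0.40, adjusted p = 0.064). Of the 18 proliferation genes 6 were called lower in SKG NKT2, and Cd1d1, listed as a thymocyte marker, was called higher (log2 fold change 0.73, adjusted p = 0.00974). Their part was not tested.

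NKT17 cells went the other way. The median log2 fold change of SKG over WT was 0.16 (0.00 over all genes), and 62 estimates were positive. It was 0.28 without WT NKT17 replicate 2 and 0.07 without WT NKT17 replicate 3. Both thresholds were passed by 1 member, against 8.37% of all genes, and 2 were higher by adjusted p alone (5.32%). Not overlapping and higher in SKG were 3 members, against 13.0% of all genes. Ndufa3, a small accessory subunit of complex I (chr7:3568975-3571765 in NCBIM37), was at 136, 176 and 127 CPM in WT NKT17 and 246, 189 and 244 CPM in SKG NKT17. The log2 fold change was 0.63 ± 0.17 (SE; adjusted p = 0.0179, edgeR). The groups did not overlap, and the call was lost in 5 of 16 alternatives: with the replicate block by title token, without WT NKT17 replicates 1 or 3 and without SKG NKT17 replicates 1 or 3. Without SKG NKT17 replicate 2, 2 members were called. Atp5h, the d subunit of the stator stalk, was at 318, 363 and 266 CPM in WT and 493, 374 and 404 CPM in SKG (log2 fold change 0.42, adjusted p = 0.0389, edgeR), but 49% of the windows of its transcripts occur elsewhere in the genome. Here 12 of the 18 proliferation genes were called lower in SKG, and their part was not tested. Markers of other cells were called higher in SKG NKT17, namely Cd79b (log2 fold change 1.91, adjusted p = 0.00264), Cd8b1 (1.78, adjusted p = 0.0915) and Cd1d1 (0.64, adjusted p = 0.027), and their part was not tested.

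**Figure D3:**
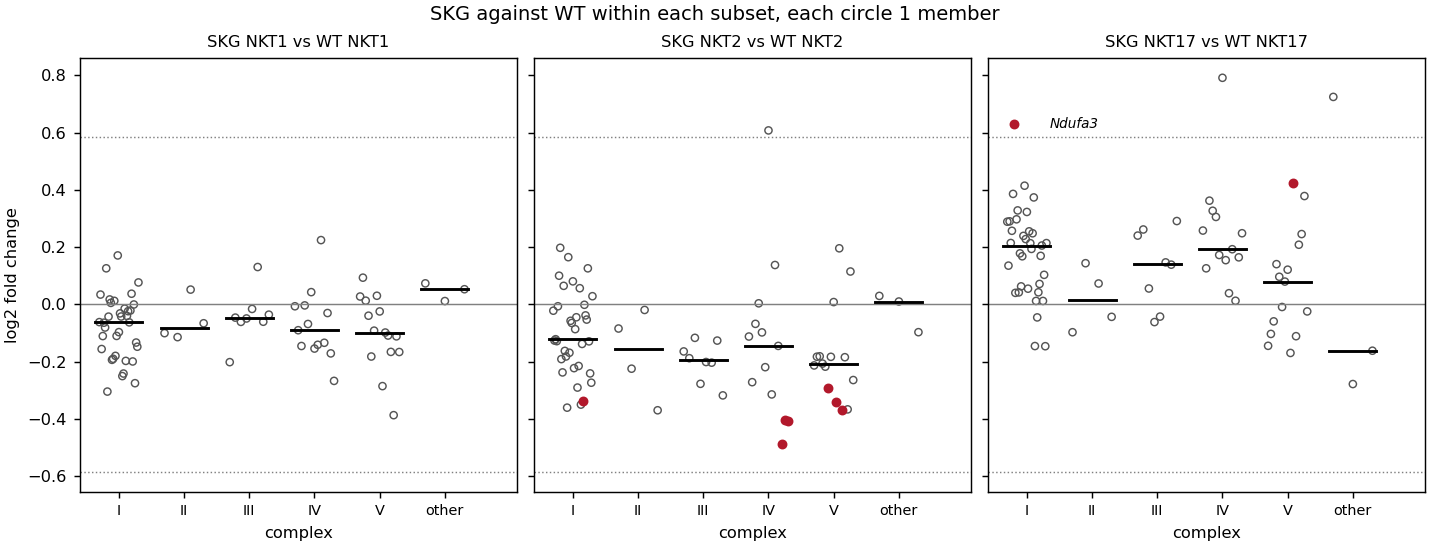
Log2 fold change of SKG over WT (y axis) of each member in NKT1, NKT2 and NKT17 cells, grouped by complex on the x axis, with symbols as in the plot of subset differences. Medians of the complexes lie at or under 0 in NKT1 and NKT2 except for the 3 members that are not subunits, and above 0 in NKT17 for all 5 complexes.

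Whether the SKG effect differed between subsets was tested as a difference of effects. NKT17 minus NKT2 gave positive estimates for 74 of 78 members, with a median of 0.28 on the log2 scale (-0.01 over all genes), and 16 had an unadjusted p under 0.05. A single member, Ndufa4, was called, against 2.19% of all genes. Ndufa4 (chr6:11850373-11857446 in NCBIM37) was at 552, 744 and 638 CPM in WT NKT2 and 509, 439 and 512 CPM in SKG NKT2, where its log2 fold change was -0.41 (adjusted p = 0.0648). In NKT17 it was at 461, 568 and 369 CPM in WT and 619, 497 and 544 CPM in SKG, where its log2 fold change was 0.25 (adjusted p = 0.294). The difference was 0.65 ± 0.19 (SE; adjusted p = 0.0978, edgeR), and the call was lost in 11 of 22 alternatives. Without WT NKT17 replicate 2 the count of members called was 5, and it was 0 without any 1 of the SKG NKT2 libraries, WT NKT2 replicates 2 or 3, or replicates 1 or 3 of either NKT17 group.

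For NKT17 minus NKT1 the median difference was 0.26 (0.01 over all genes), with 68 positive estimates, no member called in edgeR or DESeq2 (4.17% of all genes in edgeR) and 13 with an unadjusted p under 0.05. Without WT NKT17 replicate 2, 4 members were called. For NKT2 minus NKT1 the median was -0.06 (0.00 over all genes), no member was called in edgeR or DESeq2 (3.87% of all genes in edgeR), and 0 had an unadjusted p under 0.05. These differences share the WT and SKG libraries of the comparisons above.

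**Figure D4:**
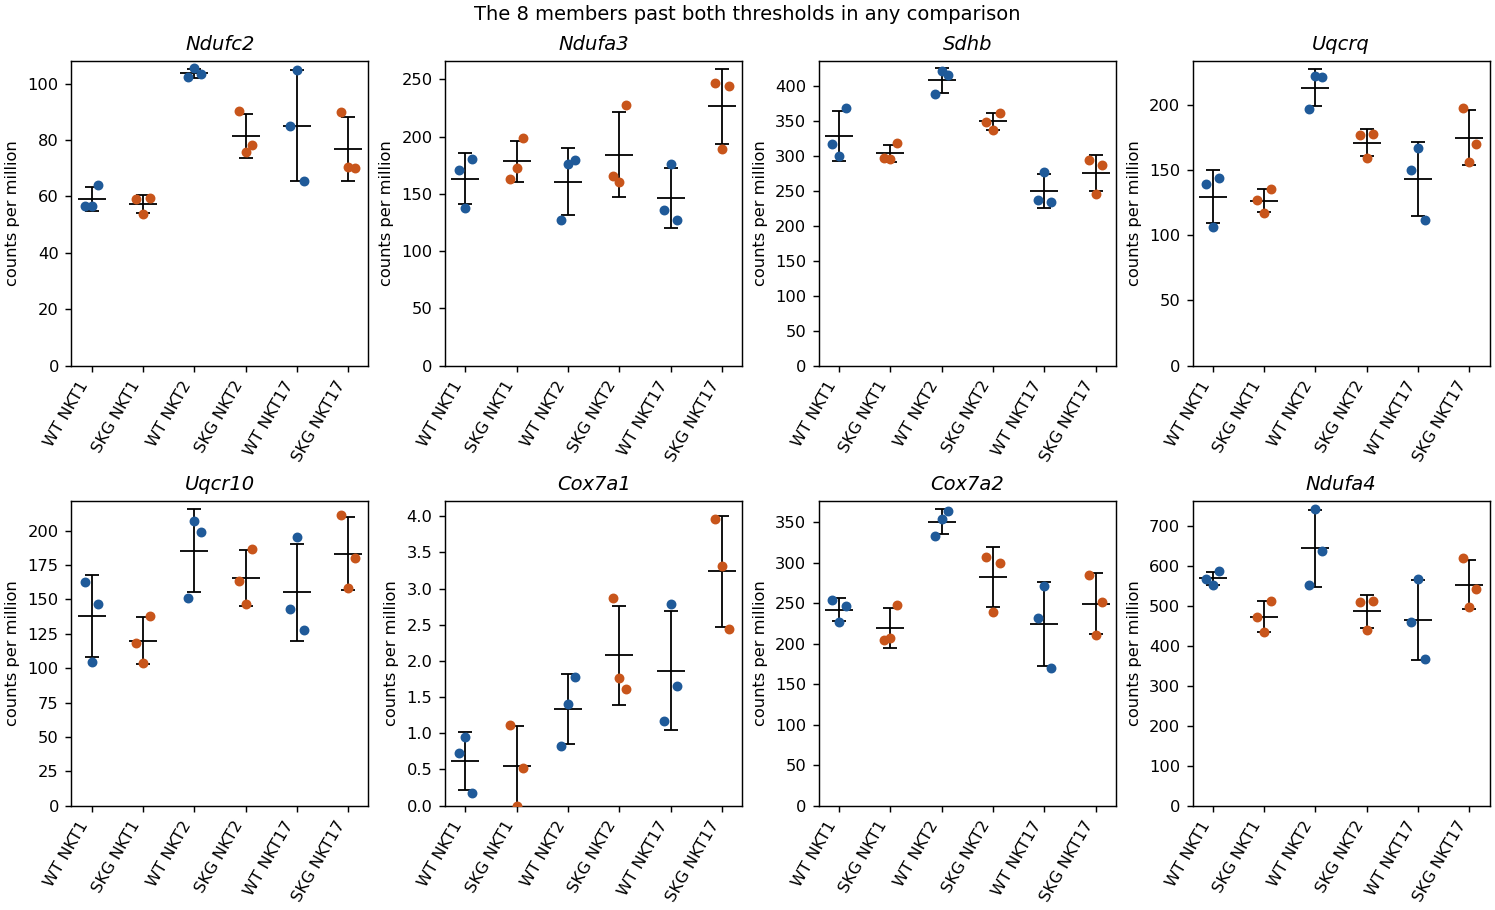
CPM (y axis, from 0, own scale in each panel) of the 8 members past both thresholds in any comparison; points are libraries (blue WT, orange SKG) and black bars the mean with its SD (n = 3). Ndufc2 and Uqcrq are lowest in NKT1, Sdhb is lowest in NKT17, and Cox7a1 is the least abundant of the 8.

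Members of the isoform list were read with the copy check in mind. The ATP synthase ring genes Atp5g1, Atp5g2 and Atp5g3 encode the same mature subunit. For Atp5g2 100% of its transcript windows occur elsewhere in the genome, so its counts are uncertain. Of the 15 tested genes of that list, 7 were lower in WT NKT17 than in WT NKT2 by adjusted p alone (13.6% of all genes). In WT NKT1 against WT NKT2, 6 were lower (19.5% of all genes), and none was higher in either comparison. Other members with many shared windows were Atp5l (89.4%), Uqcrb (61.5%), Cox5b (56.5%) and Cox7a2l (53.2%). Of the called members, Ndufc2, Sdhb, Ndufa3, Uqcr10 and Cox7a1 had 0% and Uqcrq, Cox7a2 and Ndufa4 had 0.55%, 4.4% and 6.55%.

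Other genes of the pathway were taken from lists. The 13 mitochondrially encoded subunits had no row in the count table under the symbols looked for, so they were not analysed. In the list of electron carriers and regulators, 9 genes were tested, and Atpif1, the inhibitor that holds back ATP hydrolysis by ATP synthase, showed the differences given next. Atpif1 was at 70.9, 71.8 and 75 CPM in WT NKT2, 22.2, 21.6 and 34.7 CPM in WT NKT1 and 43.1, 51.8 and 38.3 CPM in WT NKT17. No libraries of these groups overlapped, and the log2 fold change of NKT1 against NKT2 was -1.47 ± 0.19 (SE; adjusted p = 1.55e-06, edgeR). In SKG it was at 29.7, 29.6 and 36.6 CPM in NKT2, 20.8, 23.1 and 23.6 CPM in NKT1 and 55.7, 46.8 and 54.4 CPM in NKT17. SKG against WT gave -1.18 ± 0.18 in NKT2 (SE; adjusted p = 0.000151, edgeR), and the difference of SKG effects between NKT17 and NKT2 was 1.42 ± 0.26 (SE; adjusted p = 0.00354, edgeR).

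Cycs, the somatic cytochrome c that carries electrons from complex III to complex IV, was at 326, 310 and 262 CPM in WT NKT17 and 508.3, 536 and 500.2 CPM in WT NKT2 (log2 fold change -0.78, adjusted p = 7.84e-06). Gpd2, the mitochondrial glycerol-3-phosphate dehydrogenase, was at 90.8, 75.2 and 65.9 CPM in WT NKT1 and 32.5, 40.7 and 39.3 CPM in WT NKT2 (log2 fold change 1.04, adjusted p = 1.86e-05). The groups overlapped in neither case.

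Against WT NKT2, 27.5% of all genes were called in WT NKT1 and 20% in WT NKT17, which are the shares to set beside the lists below. Among 20 tested assembly factors of complexes II to V, 1 was called higher and 0 lower in WT NKT17 than in WT NKT2. It was Cox10, which makes the heme precursor of cytochrome c oxidase, at 163, 142 and 162 CPM in WT NKT17, 77.3, 66.1 and 72.3 CPM in WT NKT2 and 46.4, 41.2 and 59.5 CPM in WT NKT1. The log2 fold change of NKT17 against NKT2 was 1.12 ± 0.14 (SE; adjusted p = 1.69e-06, edgeR), opposite in sign to the median of complex IV. Among 10 tested complex I assembly factors, Foxred1 was called lower in both WT NKT1 (log2 fold change -0.86, adjusted p = 0.000596) and WT NKT17 (-0.69, adjusted p = 0.00552) than in WT NKT2. A list of 17 genes held citric acid cycle enzymes and the pyruvate enzyme genes Pdha1, Pdhb, Dlat and Pcx. Of these 17, 0 were called in either comparison with WT NKT2, with medians of 0.01 for NKT1 and -0.17 for NKT17. By adjusted p alone, 3 were lower in NKT1 (19.5% of all genes) and 0 higher (19.3%). In NKT17, 1 was lower (13.6% of all genes) and 1 higher. Of 14 regulators of mitochondrial biogenesis, 1 was called lower in WT NKT1 than in WT NKT2 (Tfb2m) and 1 in WT NKT17 (Myc, log2 fold change -1.27, adjusted p = 2.71e-07), and Nrf1, Gabpa, Yy1 and Tfam were not called in either.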

How the data were processed

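Transcripts were measured by poly-A RNA sequencing (50-base single-end reads) of sorted thymic iNKT cells, 18 libraries in 6 groups of 3. The authors deposited raw read counts per gene. The submitters' processing notes name Bowtie 1.0.0, TopHat 1.4.1 and HTSeq 0.7.1. The notes and the study's methods name different builds, and the annotation and strand setting were not given in the sources used here, so gene positions come from NCBIM37 and overlapping or antisense genes cannot be separated. In the table, 2 columns belong to no listed sample and were not used.

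Counts were scaled by TMM, genes with low counts were filtered by edgeR's default, and 1 quasi-likelihood model over the 6 groups was fitted to 11118 genes (edgeR 4.0.16, R 4.3.3; residual df 12), with Benjamini-Hochberg adjustment over all of them. A gene was called at adjusted p under 0.1 and at least 1.5-fold, the thresholds of the study. Scripts were tested on simulated counts. Spliced coding transcripts (GENCODE M1) were cut into 50-base windows to count copies elsewhere in the genome.

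Named genes were the called members of each comparison, those called in a difference of SKG effects, the core and isoform lists, and up to 4 examples of lowest adjusted p from each other list. Other members past the adjusted p alone were chosen for naming after their values were seen. Other scalings and filters, DESeq2 1.42.0, a block by title token, other thresholds and leaving out each library were tried. Tokens paired WT NKT17 with WT NKT2 libraries (correlations of deviations 0.2185 to 0.3514 over 3 pairs). At lower correlations (0.0514 to 0.2137) they also paired the SKG subsets with each other. The meaning of the tokens is not stated. The members and lists were chosen with earlier results of these data known. Some items are not reported here.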

Additional observations from a re-analysis of the deposited data

Results flagged for a closer look

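For Ndufa4 the SKG effect differed between NKT17 and NKT2 cells: the difference of the log2 fold changes was 0.65 ± 0.19 (SE; adjusted p = 0.0978, edgeR). It is listed because the difference itself passed the threshold. The adjusted p ran from 0.0162 to 0.294 over the 22 alternatives, and the call was lost in 11 of them.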

How the results depend on the processing

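No called member and no member of the core and isoform lists changed direction past a threshold. In the comparisons of pairs of groups, no median of the members moved by more than the spread between replicates. Other named members and the medians of the differences of SKG effects were not checked in this way. Shares of all genes under the alternatives are not given, so changes in the counts may not be particular to the members. For WT NKT1 against WT NKT2, members called (2) were 7 with upper-quartile scaling, 9 with library totals and 28 with no fold minimum, and 2 to 5 when 1 library was left out. Members lower by adjusted p alone (26) were 41 and 47 with those scalings, and 19 to 33 without 1 library. For WT NKT17 against WT NKT2, members called (2) were 4 with RLE scaling, no low-count filter, a mean of at least 50 counts, DESeq2 or the replicate block, 5 with upper-quartile scaling, 30 with no fold minimum and 1 to 9 without 1 library. Members lower by adjusted p alone (30) were 15 to 43 without 1 library. For WT NKT1 against WT NKT17, members called (0) were 1 with library totals, 11 with no fold minimum and 0 to 1 without 1 library. Members higher by adjusted p alone (8) were 5 with upper-quartile scaling, 4 with library totals, 3 with only the compared libraries and 4 to 16 without 1 library. For SKG NKT1 against SKG NKT2, members called (0) were 2 with library totals, 9 with no fold minimum and 0 to 1 without 1 library. Those lower by adjusted p alone (8) were 13 with upper-quartile scaling, 34 with library totals, 5 at adjusted p under 0.05, 14 with only the compared libraries and 3 to 10 without 1 library. For SKG NKT1 against SKG NKT17, members called (2) were 1 with a mean of at least 50 counts, 16 with no fold minimum and 1 to 3 without 1 library. Those lower by adjusted p alone (16) were 28 with library totals, 10 at adjusted p under 0.05 and 4 to 22 without 1 library. For SKG NKT17 against SKG NKT2, members called (0) were 4 with no fold minimum, and those lower by adjusted p alone (4) were 7 with upper-quartile scaling, library totals or only the compared libraries, and 2 to 5 without 1 library.

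For SKG against WT, members called in NKT2 (0) were 7 with no fold minimum and 0 to 1 without 1 library. Those lower by adjusted p alone (7) were 12 with the replicate block, 0 at adjusted p under 0.05, 19 with only the compared libraries and 0 to 6 without 1 library. In NKT17, members called (1) were 0 with the replicate block, 2 with no fold minimum and 0 to 2 without 1 library. For the difference of effects between NKT17 and NKT2, members called (1) were 0 at adjusted p under 0.05, 0 with only the compared libraries and 0 to 5 without 1 library, and between NKT17 and NKT1 (0) they were 0 to 4 without 1 library. The cause of these changes was not tested. Between SKG subsets, libraries of the same title token deviated together, with correlations of 0.0514 to 0.2137 and of at most 0.0464 for other pairs. The main tests there did not pair them. In the remaining comparisons same-token libraries gave -0.1508 to 0.2621 and were not taken as pairs. With 3 libraries a group, the median SE of a member's log2 fold change was 0.136.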
